A study of Mus musculus with 4 samples.

Results

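G1 cyclins and the inhibitors of their kinases were followed in primary mouse hematopoietic stem and progenitor cells (HSPCs) in which *Chaf1b* had been deleted. The group was defined by a list of 10 genes matched to the count tables by mouse symbol. It holds 5 cyclin genes (*Ccnd1*, *Ccnd2*, *Ccnd3*, *Ccne1* and *Ccne2*) and 5 inhibitor genes (*Cdkn1b*, *Cdkn2a*, *Cdkn2b*, *Cdkn2c* and *Cdkn2d*). A value was found for 9 of them, out of 43629 gene identifiers in the tables. *Cdkn2d*, which encodes p19Ink4d, was not matched to an identifier and is not analysed here.

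D-type cyclins bind CDK4 and CDK6 in early G1, in answer to growth factors, and E-type cyclins bind CDK2 later, at entry into S phase. Both kinase pairs phosphorylate the RB family, which releases E2F factors to transcribe genes of DNA replication. Inhibitors of the INK4 family (p16Ink4a, p15Ink4b, p18Ink4c and p19Ink4d) bind CDK4 and CDK6, whereas those of the CIP/KIP family (p21, p27 and p57) bind cyclin-CDK2 complexes. In blood, cyclin D levels and p18, p27 and p57 are known to bear on the quiescence and division of stem and progenitor cells. CHAF1B is a subunit of CAF-1, the complex that places histones H3 and H4 on newly copied DNA, and the comparison asks how RNA levels in these cells stood after its loss.

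All 4 libraries came from CD117+ HSPCs of C57Bl/6 mice carrying Chaf1b (fl/fl) alleles, grown in serum-free medium with SCF, IL6, IL3 and LDL. In 2 control libraries the cells had received the empty retroviral vector MIGR1, and in 2 libraries they had received MIGR1-Cre, which gave the genotype labelled Chaf1b (-/-). Here the pairs are called MIGR1 and dChaf1b. Cells positive for the vector's eGFP were sorted 48 h after spinfection, so both pairs were transduced and sorted alike, and Cre itself was present only in the dChaf1b cells. The labels do not say whether libraries came from separate mice, so the p-values measure only the spread between these libraries, which for the MIGR1 pair may be technical.

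Totals counted on genes lay between 18468637 and 25409926 reads, and levels are given as CPM, the counts per 1000000 reads of that total. *Chaf1b* itself had 1825 and 1471 counts in the MIGR1 libraries and 378 and 330 in the dChaf1b libraries, a log2 fold change of -2.01 (SE 0.25, Benjamini-Hochberg adjusted p = 0.0330, edgeR quasi-likelihood test). Its counts cover the whole gene, and which exons the loxP sites flank is not in the labels. All 10 HSPC markers, among them *Kit*, *Cd34* and *Mpo*, were detected in all 4 libraries. Of these, *Flt3*, a receptor of early progenitors, was called higher, with 4.66 and 5.31 CPM in the MIGR1 and 19.3 and 22.7 CPM in the dChaf1b libraries (log2 fold change 2.09, SE 0.28, adjusted p = 0.0383), and *Myb* had 475 and 492 against 298 and 335 CPM without a call. Also detected were mature neutrophil markers, whose summed level was 44972 and 52447 CPM in the MIGR1 and 65001 and 48783 CPM in the dChaf1b libraries. The first dChaf1b library stood apart. It had 7905 counts of *Xist* against 23 to 33 in the others and at most 2 counts of each of 4 Y-linked genes, against 837 to 2846 in the others, so the dChaf1b pair did not come from a single mouse. Its interferon-stimulated genes lay above the MIGR1 mean by a median of 4.26 on the log2 scale, against 0.0014 in the second dChaf1b library. For the tested genes of the group and for *Cdkn1c*, the log2 fold change is therefore given also without that library. Results for the other pathway genes include it unless stated.

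None of the 8 genes of the group that passed the count filter was called changed, where a call is a fitted change of at least 1.5-fold with an adjusted p under 0.05. Over all 16500 genes tested, 0.370% passed as higher and 0.00606% as lower, the latter being *Chaf1b* alone. The unadjusted p was under 0.05 for 2 of the 8 genes, *Ccnd1* and *Cdkn2b*, against 12.3% of all genes tested, and DESeq2 placed 0 of them under that level. Calls in the group also numbered 0 with edgeR's exact test and with DESeq2. Of the 8 log2 fold changes, 7 were above 0, with a median of 0.35, while the median over all genes tested was -0.030. Both dChaf1b libraries lay above both MIGR1 libraries for 5 genes (*Ccnd1*, *Ccnd3*, *Cdkn1b*, *Cdkn2b* and *Cdkn2c*), an order seen in 21.4% of all genes tested. Such orders were read from CPM, without the TMM scaling used in the fit. The opposite order, seen in 22.9% of genes tested, occurred for 0 of the 8. *Cdkn2b* passed the filter only through the dChaf1b libraries, so these counts do not support a shift of the whole group. Without the first dChaf1b library, which leaves that arm with a single library assumed to vary like the MIGR1 pair, 6 of the 8 were above 0 and the median was 0.18. In bulk samples a change in the proportion of a cell type cannot be told apart from a change of RNA per cell. With 2 libraries against 2, an exact permutation test of a single gene cannot give a two-sided p below 0.333, so tests rest on the fit across all genes.

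**Figure D1:**
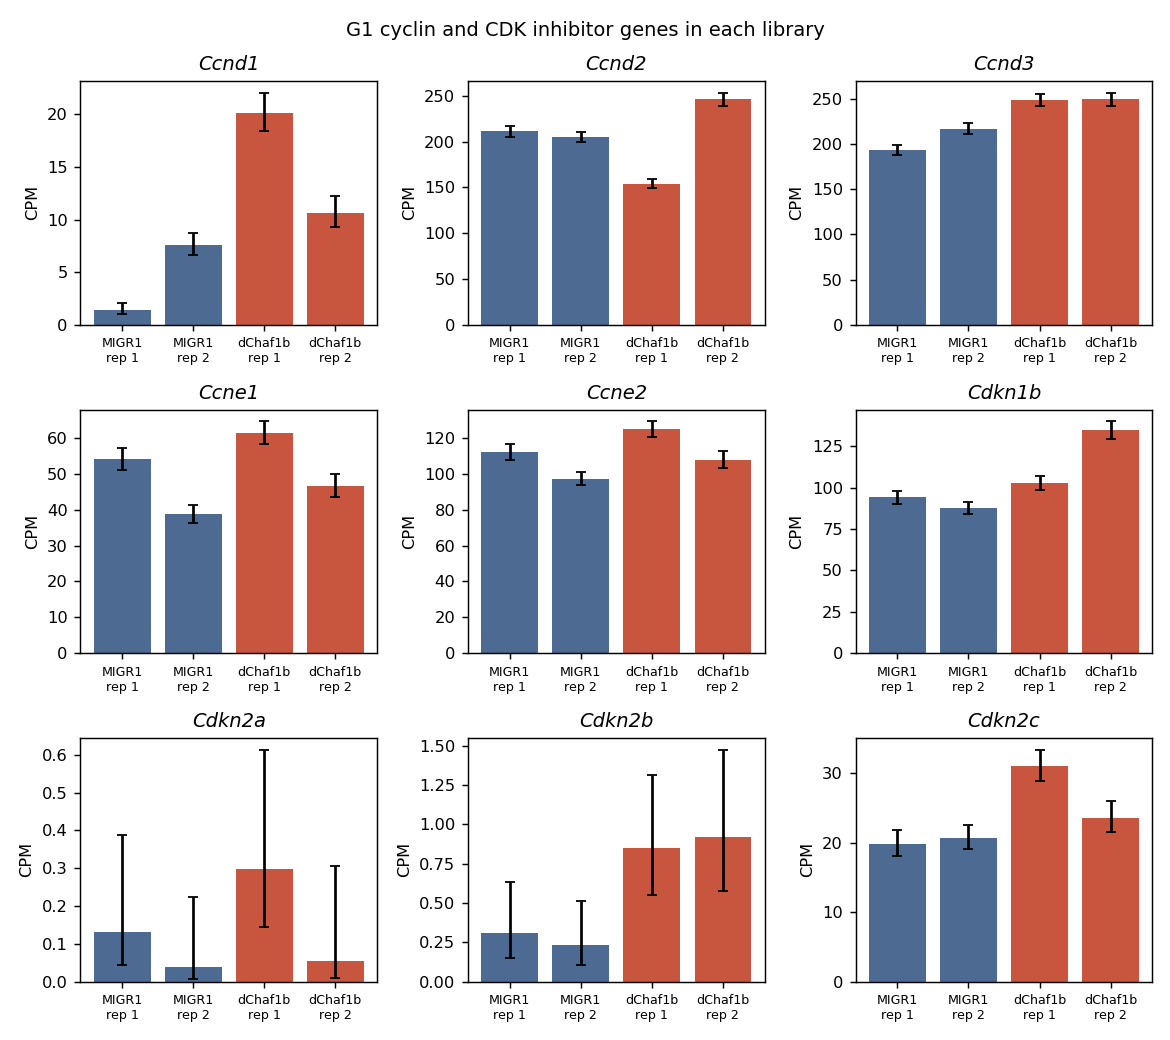
CPM of the 9 genes with a value in the 4 libraries (MIGR1 in blue, dChaf1b in red). Bars are single libraries and error bars are 95% Wilson intervals, which cover counting error only. The axes start at 0 and differ between panels. *Ccnd3* and *Cdkn1b* were higher in both dChaf1b libraries. The margin of *Cdkn1b* was small in the first of them (103 CPM) and larger in the second (135 CPM). *Ccnd1* ranged from 1.45 to 20.2 CPM, and *Cdkn2a* had at most 7 counts in a library.

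Ranked by CPM per kb of exon, averaged over the 4 libraries, the order was *Ccnd3* (100.9), *Ccnd2* (35.8), *Ccne2* (31.6), *Cdkn1b* (23.0), *Ccne1* (18.9), *Cdkn2c* (8.86), *Ccnd1* (2.60), *Cdkn2b* (0.415) and *Cdkn2a* (0.112). *Ccnd3* at 85.9 to 111 CPM per kb did not overlap any other gene of the group. The ranges of *Ccnd2* (27.04 to 43.2), *Ccne2* (27.8 to 35.7) and *Cdkn1b* (19.3 to 29.6) overlapped each other, and that of *Cdkn1b* overlapped *Ccne1* (14.5 to 23.1). *Cdkn2c* stood alone between 7.38 and 11.6, and the 3 genes at the low end formed a chain of overlapping ranges, *Ccnd1* with *Cdkn2b* and *Cdkn2b* with *Cdkn2a*. With the longest transcript as the length, *Ccne1* ranked above *Cdkn1b*, at 25.1 CPM per kb. These levels are a description of the 4 libraries and were not tested.

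Among the D cyclins, *Ccnd3* gave most of the RNA per exon length in every library. The gene (ENSMUSG00000034165, 17:47642000-47736632 in NCBIM37, plus strand) encodes cyclin D3, which is needed for expansion of several blood lineages. It had 4406 and 5522 counts in the MIGR1 libraries, or 194 and 217 CPM, and 5863 and 4612 in the dChaf1b libraries, or 249 and 250 CPM. The dChaf1b libraries were nearly identical and both above the controls, and the fitted log2 fold change of 0.31 (SE 0.21, adjusted p = 0.616) was not called. Without the first dChaf1b library it was 0.20. Of its 31-base exonic stretches, 29.6% occur elsewhere in the genome, so its level depends on how shared reads were counted.

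*Ccnd2* (ENSMUSG00000000184, 6:127075797-127101066, minus strand), the cyclin D2 gene, had 4811 and 5202 counts (212 and 205 CPM) in the MIGR1 and 3628 and 4550 counts (154 and 246 CPM) in the dChaf1b libraries. The dChaf1b libraries lay on either side of the controls and differed from each other 1.60-fold, more than the group means did. The log2 fold change was -0.052 with a 95% interval from -0.59 to 0.49, and without the first dChaf1b library it was 0.16. Neither value was called.

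*Ccnd1* (ENSMUSG00000070348, 7:152115836-152125774, minus strand) encodes cyclin D1, a common target of growth factor signals that is low in many blood cells. It was counted 33 and 193 times in the MIGR1 libraries (1.45 and 7.60 CPM) and 475 and 197 times in the dChaf1b libraries (20.2 and 10.7 CPM). The lowest dChaf1b value was above the highest control, but the controls themselves differed 5.23-fold. The fitted log2 fold change was 1.83 (SE 0.70, 95% interval 0.19 to 3.47) and was not called (adjusted p = 0.344). This gene was the only one of the group whose call turned on the processing. It was called with all genes entered without a count filter (adjusted p = 1.13e-04), and without the second MIGR1 library (log2 fold change 3.45, adjusted p = 3.06e-06), and over all alternatives its adjusted p in edgeR reached from 3.06e-06 to 0.527. Without the first MIGR1 library the log2 fold change was 1.09, and without the first dChaf1b library it was 1.16. Markers of monocytes and macrophages also differed between the controls, with sums of 265 and 745 CPM against 474 and 384 CPM in the dChaf1b libraries, and their part in the *Ccnd1* values was not tested. On the other strand, *Oraov1* shares 818 exonic bases with *Ccnd1* and had 304, 297, 257 and 209 counts in the same order of libraries.

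Per exon length, *Ccnd3* made up 69.6% and 71.8% of the D cyclin sum in the MIGR1 and 77.4% and 70.7% in the dChaf1b libraries. *Ccnd2* supplied between 18.9% and 30.1%. The share of *Ccnd1* was 0.307% and 1.48% in the MIGR1 and 3.69% and 1.77% in the dChaf1b libraries, so the gene with the highest fold in this family stayed its least abundant member throughout. The lowest *Ccnd2* share and the highest *Ccnd1* share both came from the first dChaf1b library.

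The E cyclins differed less between groups than between libraries of a group. *Ccne1* (ENSMUSG00000002068, 7:38883003-38892553, minus strand) had 1228 and 983 counts in the MIGR1 and 1446 and 862 in the dChaf1b libraries, that is 54.0 and 38.7 against 61.4 and 46.7 CPM. The groups overlapped, and the control pair differed 1.40-fold where the group means differed 1.17-fold. *Ccne2* (ENSMUSG00000028212, 4:11118498-11131926, plus strand) had 2549 and 2472 counts (112 and 97.3 CPM) in the MIGR1 and 2935 and 1986 counts (125 and 108 CPM) in the dChaf1b libraries, again with overlap. Their log2 fold changes were 0.26 (95% interval -0.39 to 0.91) and 0.18 (95% interval -0.34 to 0.71), and both turned below 0 without the first dChaf1b library, at -0.073 and -0.043. *Ccne2* supplied 60.7% to 65.7% of the E cyclin sum per exon length, with the controls at 61.3% and 65.7%. *Ccne2* shares 609 exonic bases with *Ints8* on the other strand, and *Ccnd3* shares 353 with *Bysl*.

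The 3 measured INK4 genes lie on chromosome 4, with *Cdkn2a* and *Cdkn2b* as neighbours. *Cdkn2c*, the p18Ink4c gene (ENSMUSG00000028551, 4:109333481-109339794, minus strand), was the only one of the 3 measured at a level above 1 CPM. It had 451 and 527 counts in the MIGR1 libraries (19.8 and 20.7 CPM) and 731 and 436 in the dChaf1b libraries (31.1 and 23.6 CPM). Both dChaf1b values were above both controls, although the second by little. The log2 fold change was 0.47 (SE 0.27, adjusted p = 0.542) with all libraries and 0.14 without the first dChaf1b library. *Cdkn2c* supplied 92.6% to 97.4% of the sum of the 3 genes per exon length.

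*Cdkn2b*, the p15Ink4b gene (ENSMUSG00000073802, 4:88952198-88956941, minus strand), was near the limit of detection, with 7 and 6 counts in the MIGR1 and 20 and 17 in the dChaf1b libraries. These are 0.308 and 0.236 CPM against 0.850 and 0.920 CPM. The pairs did not overlap and their members were close to each other, yet only the dChaf1b values exceeded the 0.432 CPM on which the filter rests. The fitted log2 fold change was 1.71 (SE 0.64, 95% interval 0.23 to 3.19) and was not called (adjusted p = 0.329), and it was 1.66 without the first dChaf1b library. Because the gene entered the test only through the dChaf1b libraries, neither these values nor the lack of overlap is read as a rise. The counting interval of the second MIGR1 library (0.108 to 0.515 CPM) met neither dChaf1b interval (0.550 to 1.31 and 0.575 to 1.47 CPM). That of the first MIGR1 library (0.149 to 0.636 CPM) met both. These intervals cover counting error only.

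*Cdkn2a* (ENSMUSG00000044303, 4:88920377-88940557, minus strand) encodes p16Ink4a and, from a start farther upstream and in another reading frame, p19Arf, which stabilizes p53. Its counts were 3 and 1 in the MIGR1 and 7 and 1 in the dChaf1b libraries. With 3 counts taken as the floor, equal to 0.118 to 0.162 CPM, both groups were at or near it, the gene failed the filter, and no fold is given. Counts per gene do not separate its transcripts. The RefSeq window (GRCm38.p6) of 250 bases before the upstream start is shown because it was the only window of the group that held the E2F consensus, searched on both strands as TTTCCCGC, TTTCGCGC, TTTGCCGC and TTTGGCGC. The match, in capitals, begins at -99 from the start.
Cdkn2a, chr4:89294620-89294869, minus strand: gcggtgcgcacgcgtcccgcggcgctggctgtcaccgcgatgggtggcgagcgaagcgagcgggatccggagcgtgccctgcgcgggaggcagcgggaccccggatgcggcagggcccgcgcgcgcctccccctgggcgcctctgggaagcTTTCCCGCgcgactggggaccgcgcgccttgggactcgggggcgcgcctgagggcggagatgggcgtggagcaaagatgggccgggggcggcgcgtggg

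*Cdkn1b*, the p27Kip1 gene (ENSMUSG00000003031, 6:134870419-134875531, plus strand), was the most abundant inhibitor of the group per exon length. It had 2140 and 2227 counts in the MIGR1 libraries (94.1 and 87.6 CPM) and 2414 and 2489 in the dChaf1b libraries (103 and 135 CPM). Both dChaf1b values lay above the controls, the first by less than the distance between the dChaf1b libraries. The log2 fold change of 0.40 (SE 0.20, 95% interval -0.068 to 0.86, adjusted p = 0.489) was not called, and without the first dChaf1b library it was 0.49. Turnover of p27 by ubiquitin ligases is a main control of this protein, which RNA counts do not show.

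Of the related inhibitors outside the group, *Cdkn1c* rose. This imprinted gene (ENSMUSG00000037664, 7:150644255-150646955, minus strand) encodes p57Kip2, known for keeping blood stem cells quiescent. It had 14 and 38 counts in the MIGR1 libraries (0.616 and 1.495 CPM) and 368 and 229 in the dChaf1b libraries (15.6 and 12.4 CPM). The groups were far apart, and the log2 fold change was 3.76 (SE 0.50, adjusted p = 0.0371 in edgeR's quasi-likelihood test). The direction held in every alternative but the call was lost in 4, with the adjusted p at 0.0525 with DESeq2 size factors, 0.0583 with library size alone, 0.0651 with at least 10 counts in every library and 0.115 with a replicate block. It was kept without the first dChaf1b library (log2 fold change 3.46, adjusted p = 0.0282). The sum of megakaryocyte markers moved in the same direction, with 102 and 99.4 CPM in the MIGR1 and 143 and 250 CPM in the dChaf1b libraries. Of these 6 markers, 5 were higher without overlap, an order seen in 21.4% of all genes tested, and 0 were called. The remaining marker, *Gp1ba*, overlapped between the groups and had a log2 fold change of -0.13. Markers of stromal or endothelial cells summed to 8.22 and 2.60 against 9.39 and 12.1 CPM. Of the 6 stromal or endothelial genes, *Col1a1* (log2 fold change 1.48), *Cdh5* and *Pdgfra* were higher without overlap, none called. *Lepr* was lower without overlap. *Cdh5* (4 and 2 counts) and *Pdgfra* (1 and 2 counts) were under the filter's level in the MIGR1 libraries and passed only through the dChaf1b libraries. *Lepr* passed only through the MIGR1 libraries, and *Lepr* and *Cxcl12* were under 1 CPM in every library. The folds of *Cdh5*, *Pdgfra* and *Lepr* are therefore not given. The part of either cell type in the *Cdkn1c* values was not tested. *Cdkn1c* remained the smallest part of the CIP/KIP sum per exon length, at 0.669% and 1.41% in the MIGR1 and 10.0% and 6.98% in the dChaf1b libraries.

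*Cdkn1a* (ENSMUSG00000023067), the p21 gene and a p53 target, had 59.3 and 77.6 CPM in the MIGR1 and 111 and 124 CPM in the dChaf1b libraries. The groups did not overlap, and the log2 fold change of 0.81 (SE 0.21, adjusted p = 0.187) was not called. *Cdkn1b*, the other gene of the family, made up 43.4% and 35.0% of the CIP/KIP sum per exon length in the MIGR1 and 27.9% and 32.2% in the dChaf1b libraries, although its own level was not lower in either of the latter.

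**Figure D2:**
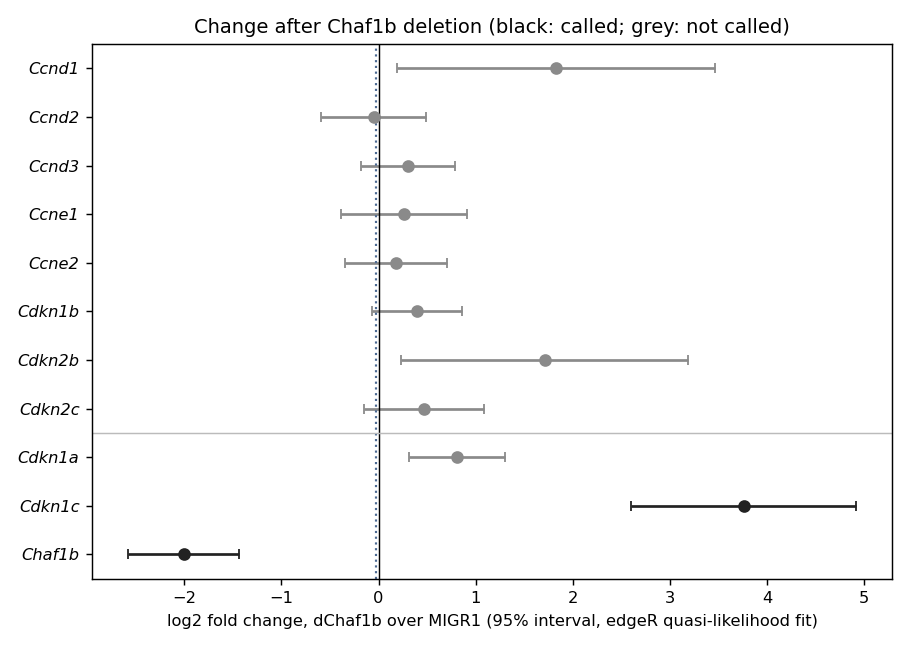
Fitted log2 fold change of dChaf1b over MIGR1 (edgeR quasi-likelihood fit) with 95% intervals for the 8 genes of the group that were tested (above the grey line) and for *Cdkn1a*, *Cdkn1c* and *Chaf1b* (under it). Black marks a call and grey none, and the dotted line is the median of all 16500 genes tested. *Cdkn1c* at 3.76 and *Chaf1b* at -2.01 are called, and *Ccnd1* and *Cdkn2b* have the widest intervals of the group. *Cdkn2b* passed the count filter only through its dChaf1b values.

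The kinases, their targets and regulators were read from the same fit in 4 fixed lists of 72 tested genes, of which 1, *Cdkn1c*, was called. It belongs to the list of 7 genes of CDK activation and other CIP/KIP inhibitors, whose median was -0.30. With edgeR's exact test and with DESeq2, *Cdkn1c* was again the only call in these 4 lists. In the list of CDKs, RB family and E2F genes, 0 of 23 were called in either direction by the quasi-likelihood test. At an unadjusted p under 0.05 was 1, against 12.3% of all genes tested, and the median log2 fold change was -0.16. *E2f2*, an activating E2F, had 88.9 and 97.8 CPM in the MIGR1 and 144 and 124 CPM in the dChaf1b libraries. The CDK2 phosphatase gene *Cdc25a* had 137 and 135 against 108 and 103 CPM, and *Rbl1*, encoding the RB relative p107, had 130 and 132 against 97.3 and 110 CPM. The CDK-activating kinase subunit gene *Ccnh* had 56.4 and 51.7 against 39.3 and 42.0 CPM. In each of these 4 genes the groups did not overlap, and none was called. They were named for the smallest p in their lists, so no conclusion is drawn from that order. In the list of 23, 4 genes were higher and 7 lower without overlap, orders seen in 21.4% and 22.9% of all genes tested. Of those counted as higher, *Rbbp4* overlapped under the TMM scaling of the fit.

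Among genes of p27 and cyclin turnover, 0 of 16 were called and 0 were at an unadjusted p under 0.05, with a median of -0.016. *Skp2*, the ubiquitin ligase subunit that marks p27 for degradation, had 59.2 and 51.0 CPM in the MIGR1 and 38.4 and 47.8 CPM in the dChaf1b libraries. *Cul3* and *Ddb1*, of ligases that act on cyclins and on other S phase proteins, had log2 fold changes of -0.28 and -0.28. Of 26 upstream regulators, 0 were called, 3 were at an unadjusted p under 0.05 (12.3% of all genes tested were), and the median was 0.052. Those 3 were *Id1* (42.3 and 62.3 against 108 and 90.4 CPM), *Kdm6b* (39.5 and 44.9 against 47.3 and 113 CPM) and *Mycn* (5.37 and 8.07 against 9.86 and 15.3 CPM). *Id1* encodes an inhibitor of bHLH factors, and *Kdm6b* encodes a demethylase of H3K27 that can act at the INK4 locus. The high *Kdm6b* value came from the second dChaf1b library alone.

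*Ccne1* and *Ccne2* are known E2F targets, and 18 other genes that E2F drives at G1/S were set beside them. Of these, 0 were called by the quasi-likelihood test and 0 were at an unadjusted p under 0.05, and the median log2 fold change was -0.29. For 9 of the 18, both dChaf1b libraries lay below both controls in CPM, an order seen in 22.9% of all genes tested. Under the TMM scaling of the fit, *Mcm2*, *Mcm5* and *Cdc6* among these 9 overlapped between the groups. Relative to the MIGR1 mean, the list's median was 0.17 and -0.17 in the MIGR1 libraries and -0.16 and -0.38 in the dChaf1b libraries, so the first dChaf1b library was level with the second control. *Mcm4* and *Mcm6*, of the replicative helicase, had 311 and 254 against 192 and 200 CPM and 509 and 464 against 354 and 313 CPM. *Cdc45*, which joins that helicase, had 121 and 93.2 against 83.7 and 71.3 CPM. The exact test and DESeq2 also called 0 of the 18. The difference between this list and the cyclin E genes was not tested.

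RefSeq promoter windows of the E2F list held the E2F consensus in 6 of 15 genes with a window, or 40.0%, against 2.16% of all 27025 genes with one. Of the group of G1 cyclins and inhibitors, 1 of 7 genes with a window held it. The windows of *Ccne1*, without a match to these letters, and of *Mcm6*, with 3 matches, 2 of them overlapping, are shown to set a G1 cyclin beside a helicase gene. Capitals mark the matches, which begin at -110, -106 and -47 from the start of *Mcm6*, the second being on the other strand. The end of the *Mcm6* window, past that start, was not found in its NCBIM37 transcripts, unlike that of *Ccne1*. These positions therefore rest on the RefSeq start alone.
Ccne1, chr7:38107491-38107740, minus strand: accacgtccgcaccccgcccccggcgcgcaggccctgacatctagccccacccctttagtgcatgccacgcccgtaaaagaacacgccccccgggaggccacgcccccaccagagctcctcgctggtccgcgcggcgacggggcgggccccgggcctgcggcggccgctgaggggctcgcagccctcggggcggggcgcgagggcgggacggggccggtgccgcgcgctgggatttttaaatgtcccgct
Mcm6, chr1:128359706-128359955, minus strand: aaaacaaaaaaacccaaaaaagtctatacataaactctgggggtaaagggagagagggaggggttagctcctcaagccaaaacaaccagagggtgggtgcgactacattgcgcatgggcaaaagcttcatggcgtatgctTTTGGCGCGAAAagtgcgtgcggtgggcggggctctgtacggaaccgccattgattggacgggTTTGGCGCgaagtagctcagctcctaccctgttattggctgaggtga

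Mitotic genes and p53 targets were read from the same fit. Of 12 mitotic genes, 0 were called and 2 were at an unadjusted p under 0.05, against 12.3% of all genes tested. Both dChaf1b libraries lay below both controls in CPM for 11, an order seen in 22.9% of all genes tested, and the median was -0.29. Under the TMM scaling of the fit, *Ccnb2* and *Birc5* among these 11 overlapped between the groups. *Mki67*, a marker of cycling cells, had 2943 and 3193 CPM in the MIGR1 and 1002 and 1860 CPM in the dChaf1b libraries. It was the only one of the 12 called by the exact test and by DESeq2, as lower. These tests called 37 and 34 of all 16500 genes tested lower. *Bub1* and *Top2a*, of the spindle checkpoint and of chromosome condensation, had 169 and 154 against 108 and 122 CPM and 1200 and 1355 against 821 and 930 CPM. Of 14 p53 targets, *Cdkn1a* among them, 0 were called by the quasi-likelihood test. At an unadjusted p under 0.05 were 10, against the same 12.3%, 14 had a log2 fold change above 0, and the median was 0.86. The exact test called 4 of them higher and DESeq2 5, where these tests called 537 and 472 of all 16500 genes tested higher. The antiproliferative gene *Btg2* had 61.7 and 60.6 CPM in the MIGR1 and 129 and 144 CPM in the dChaf1b libraries, and *Plk2* and *Sesn2* had log2 fold changes of 1.62 (SE 0.31, adjusted p = 0.0982) and 1.13 (SE 0.22, adjusted p = 0.101). The p53 list lay above the MIGR1 mean in both dChaf1b libraries, by medians of 0.98 and 0.79, whereas of 10 interferon-stimulated genes, with 0 called by the quasi-likelihood test, 8 at an unadjusted p under 0.05, 5 called by the exact test and 0 by DESeq2, the genes *Isg15*, *Oasl1* and *Rsad2* were high in the first dChaf1b library alone (1014, 1303 and 6326 counts, against at most 287 in any of the other 3).

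**Figure D3:**
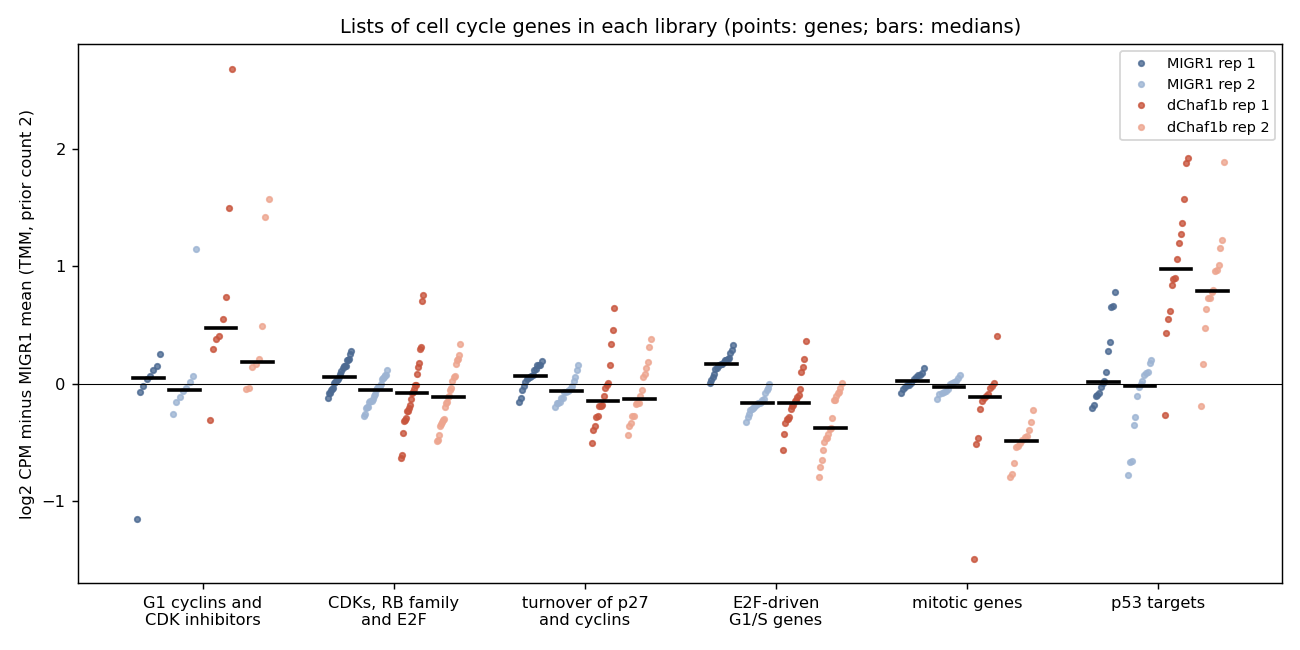
Difference of each gene's log2 CPM (TMM-scaled, prior count 2) from its MIGR1 mean, by list and library. Points are genes and black bars are medians. The median of the G1 cyclins and inhibitors is 0.48 and 0.19 in the dChaf1b libraries, that of the p53 targets 0.98 and 0.79, and those of the E2F-driven and mitotic genes are below 0 in both.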

How the data were processed

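RNA from 4 HSPC libraries, 2 MIGR1 and 2 dChaf1b, had been prepared with a stranded total RNA kit after removal of ribosomal RNA. The authors aligned reads to mm9 with STAR and counted them per gene with HTSeq, and the deposited values are raw counts, 1 table per library. The annotation release and the strand setting of the counting are not given in the sources used here. Rows that name no gene were left out of library sizes, and among them reads outside genes made up 35.8% to 48.3% and ambiguous reads 2.05% to 2.76% of the reads in a table. Symbols and positions (counted from 1) are those of NCBIM37, which is mm9 in Ensembl's naming, and cover 33068 of 43629 identifiers.

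Differences were computed with edgeR 4.0.16 in R 4.3.3 (limma 3.58.1) on the counts of all 4 libraries, with TMM factors from 0.925 to 1.06, edgeR's filter at a minimum count of 10, glmQLFit and glmQLFTest. Adjusted p-values were taken over all 16500 genes tested. The SE given is the absolute log2 fold change divided by the square root of the test's F statistic. The 95% intervals of fold changes were built from that SE with the median total degrees of freedom over all genes tested. DESeq2 1.42.0, edgeR's exact test, other scalings and filters, a replicate block and fits without each library were alternatives. Levels between genes were compared per kb of the union of exons. Counting intervals are Wilson intervals at 95% and cover counting error only, since reads carry no molecular identifiers. Replicates of the same group differed by more than sampling noise (chi-square per degree of freedom 44.4 and 66.9), so all 4 were kept as separate samples.

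The members and all gene lists were chosen with earlier results of these data known. Of the 8 pathway lists, each gene called is named, and otherwise the genes with the smallest unadjusted p, up to 3 per list. Where an order of libraries is counted for such a list, genes that lost it under TMM scaling are named as well. Which marker genes and overlapping genes are given beside a result was decided after their values were seen.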

Additional observations from a re-analysis of the deposited data

How the results depend on the processing

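The number of genes of the group called was 0 in the main fit and in all alternatives except 2, where *Ccnd1* was called. It was 1 without a count filter and 0 to 1 when 1 library was left out (1 without the second MIGR1 library). The median log2 fold change of the group was 0.18 without the first dChaf1b library and 0.18 to 0.48 over all fits with a library left out. Without the first dChaf1b library *Ccnd2* turned above 0 and *Ccne1* and *Ccne2* below it, and over the fits with a library left out their log2 fold changes ran from -0.29 to 0.16, from -0.073 to 0.55 and from -0.043 to 0.39. Genes of the 8 pathway lists called (marker lists left out), 1 in the main fit, were 0 with DESeq2 size factors, with library size alone, with at least 10 counts in every library and with the replicate block, 19 without a filter, 11 with the exact test, 7 with DESeq2 and 3 to 14 with a library left out. Over all genes, against 61 called higher and 1 lower, the calls were 27 and 1 with DESeq2 size factors, 30 and 1 with library size, 808 and 79 without a filter, 3 and 0 with at least 10 counts in every library, 537 and 37 with the exact test, 472 and 34 with DESeq2, and 125 to 331 and 6 to 42 with a library left out. Deviations of same-numbered libraries from their group means correlated at 0.011 over 16500 genes, so the numbers were not taken to pair the libraries. A replicate block gave 14 calls higher and 0 lower, and 0 in the group. *Chaf1b*, the only gene called lower in the main fit, was therefore not called there, nor with at least 10 counts in every library. The cause of these differences was not tested. Fits with a library left out assume that the lone library varies like the other group. At 3 counts the limit of detection was 0.118 to 0.162 CPM, which bears on *Cdkn2a*.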
